A study of Mus musculus with 9 samples.

Results

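The Ces2 and Ces3 genes encode carboxylesterases, and their liver transcript levels are described here across a regular diet, a high-fat diet and a high-fat diet given with ginseng flower bud extract. The genes were chosen by symbol: 9 symbols were listed, namely Ces2a, Ces2b, Ces2c, Ces2e, Ces2f, Ces2g, Ces2h, Ces3a and Ces3b. For each, the probe set that the array annotation gives to that symbol alone, and with the highest mean over the 9 arrays, stood for the gene. This gave a value for 8 genes, 6 of the Ces2 group and 2 of the Ces3 group, among 22180 genes measured in the series. Ces2c, with 0 probe sets assigned to its symbol in the annotation table used here, is named only. The rule used mean levels, so levels are described without a test, and the family was taken up with earlier results of these data known, including the difference of Ces2a with extract.

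The samples were livers of C57BL/6 mice, 5 weeks old when housed (the labels also spell the strain C56BL/6J), collected after an overnight fast. The regular-diet group (RD) received vehicle, the high-fat diet group (HFD) received vehicle, and the third group (GFB) was fed the high-fat diet and received the extract at 500 mg/kg by mouth once a day for 12 weeks. Each group has 3 arrays, and nothing in the labels ties an array to a mouse of its own, so p-values reflect only how far these samples spread, which may be technical. The sex of the mice and the makeup of the diets are not given in the sources used here.

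Carboxylesterases are serine hydrolases of the endoplasmic reticulum that split ester, thioester and amide bonds. In liver and intestine they turn over drugs and other foreign compounds, and several members also act on neutral lipids. Enzymes of the Ces2 group have been tied to the breakdown of diglycerides and triglycerides, and Ces3a and Ces3b encode liver esterases with older esterase names of their own. The triacylglycerol hydrolase that older work calls Ces3 is now named Ces1d and belongs to another group of the family.

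Values are log2 expression values made by robust multi-array average (RMA), on which a difference of 1 is a doubling. Array medians ran from 4.34 to 4.38, and the correlation of array profiles over all probe sets was 0.983 to 0.987 for arrays of one group and 0.981 to 0.986 for arrays of different groups. A gene was called changed at an adjusted p under 0.05 in limma, a linear model with moderated variances fitted to all 9 arrays and adjusted over the 22180 genes by the Benjamini-Hochberg method. The median of the gene means, 4.74, is used as a mark of brightness, and genes below it are called dim. No detection calls or background levels were used here. All 6 measured hepatocyte markers lay above the mark. In whole-liver RNA, fewer cells of a type and less RNA per cell cannot be told apart.

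The 9 genes lie on mouse chromosome 8 in 1 run, in the order Ces2a, Ces2b, Ces2c, Ces2e, Ces2f, Ces2g, Ces2h, Ces3a and Ces3b in the RefSeq annotation of GRCm38.p6. The pseudogene Ces2d-ps lies within the run. The RefSeq promoter table held an entry for 7 of the 9, all but Ces2b and Ces3a. The 250 bases before the annotated start are shown for Ces2a, Ces2e and Ces2g, the 3 Ces2 genes that passed a test below. Of these, Ces2e and Ces2g had the same order of groups and Ces2a had another. All 3 are on the plus strand, at chr8:104733753-104734002 for Ces2a, chr8:104926010-104926259 for Ces2e and chr8:104961468-104961717 for Ces2g. Capitals mark 2 shared runs of letters:
Ces2a: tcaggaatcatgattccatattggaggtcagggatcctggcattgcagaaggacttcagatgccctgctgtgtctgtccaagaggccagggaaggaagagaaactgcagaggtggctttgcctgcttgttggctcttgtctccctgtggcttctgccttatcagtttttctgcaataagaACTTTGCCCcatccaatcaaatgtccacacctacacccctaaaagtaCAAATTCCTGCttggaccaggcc
Ces2e: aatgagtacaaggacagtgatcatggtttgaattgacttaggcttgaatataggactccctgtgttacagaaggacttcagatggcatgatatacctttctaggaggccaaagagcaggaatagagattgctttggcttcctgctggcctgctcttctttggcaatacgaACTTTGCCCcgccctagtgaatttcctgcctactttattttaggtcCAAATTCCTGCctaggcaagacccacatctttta
Ces2g: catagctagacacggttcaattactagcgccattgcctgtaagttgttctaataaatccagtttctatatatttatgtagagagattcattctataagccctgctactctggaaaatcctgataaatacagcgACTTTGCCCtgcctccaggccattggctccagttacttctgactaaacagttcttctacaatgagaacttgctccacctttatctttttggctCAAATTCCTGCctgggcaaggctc

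The longest run of letters common to these 3 sequences was CAAATTCCTGC, 11 bases long. It began 23 bases before the start in Ces2a, 34 bases before it in Ces2e and 24 bases before it in Ces2g. Read on both strands, it occurred in 8 of the 32851 promoter windows of 300 bases in the table (0.0244%). The 9-base run ACTTTGCCC was the longest one common to Ces2a, Ces2e, Ces2f and Ces2g, and it occurred in 86 windows (0.262%). The runs were picked as the longest shared letters of neighbouring genes with related sequences, so their rarity is a description of that likeness. The windows counted include those of these genes. Any part of these runs in the levels of the genes was not tested.

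Short letter motifs of known factors and promoter elements were searched on both strands in the 300-base windows of the 7 genes, which also hold 50 bases after the start. The letters TTGCNNAA of a C/EBP site, bound by a liver factor family, were found at 2 places in Ces2a and 1 place in Ces2e, and in 10.8% of all windows. The nuclear receptor half-site AGGTCA was found in Ces2a and Ces2h and in 16.3% of all windows. The CCAAT box (CCAAT) was found in Ces2a, Ces2c, Ces2g, Ces2h and Ces3b and in 37.4% of all windows, and in Ces2a the reverse-strand box directly adjoins the half-site. The TATA box (TATAAA) was found in Ces3b alone among the 7, from 30 to 25 bases before the start, and in 13.6% of all windows. The HNF4 core CAAAGTCCA, the antioxidant element core TGACNNNGC and the E-box CACGTG had 0 matches in the 7 windows, and occurred in 0.475%, 12.4% and 7.15% of all windows. A match or its absence describes only the letters of these windows.

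Ces2a, which encodes a lipid and drug ester hydrolase of the endoplasmic reticulum, had the tightest groups among the 8 genes, with a residual SD of 0.06. Its log2 levels were 9.29, 9.34 and 9.28 on the regular diet, 9.02, 9.16 and 9.02 on the high-fat diet, and 9.76, 9.87 and 9.81 with extract. The groups were fully separated in each pair, in the order high-fat diet, regular diet, extract from low to high. None of the other 4 genes with a signal above the brightness mark had this order. Among all genes, groups did not overlap for 15.8% (high-fat against regular diet), 9.69% (extract against high-fat diet) and 14.6% (extract against regular diet). The share of all genes separated in every pair at once was not counted, so full separation is given here and below as a description.

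Ces2e, another Ces2 enzyme gene, read 8.54, 8.36 and 8.07 on the regular diet, 9.08, 9.24 and 9.23 on the high-fat diet, and 8.83, 8.85 and 8.80 with extract. Its groups were also fully separated, but in the order regular diet, extract, high-fat diet. Ces2g had the same order at 6.90, 7.14 and 6.48 on the regular diet, 7.58, 7.95 and 7.80 on the high-fat diet, and 7.31, 7.51 and 7.24 with extract. In both genes regular-diet replicate 3 was the lowest of the 9 arrays.

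Ces3a, an abundant liver esterase gene, read 11.90, 11.80 and 11.64 on the regular diet, 12.44, 12.23 and 12.27 on the high-fat diet, and 12.30, 12.24 and 12.32 with extract. Both high-fat groups lay above the regular diet and overlapped each other. Ces3b, its neighbour, read 9.79, 9.87 and 9.25 on the regular diet, 10.40, 9.61 and 10.49 on the high-fat diet, and 10.76, 10.63 and 10.07 with extract. Its spread was the widest of the 8 genes, with a residual SD of 0.40, and high-fat diet replicate 2 lay among the regular-diet arrays.

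Ces2b, Ces2f and Ces2h lay below the brightness mark of 4.74 in every one of the 9 arrays. Ces2b ran from 3.46 to 4.30, Ces2f from 2.56 to 2.99 and Ces2h from 3.26 to 4.33. Whether these signals exceed the array background was not tested, and their differences between groups are given as values. The other 5 genes lay above the mark in all 9 arrays.

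**Figure D1:**
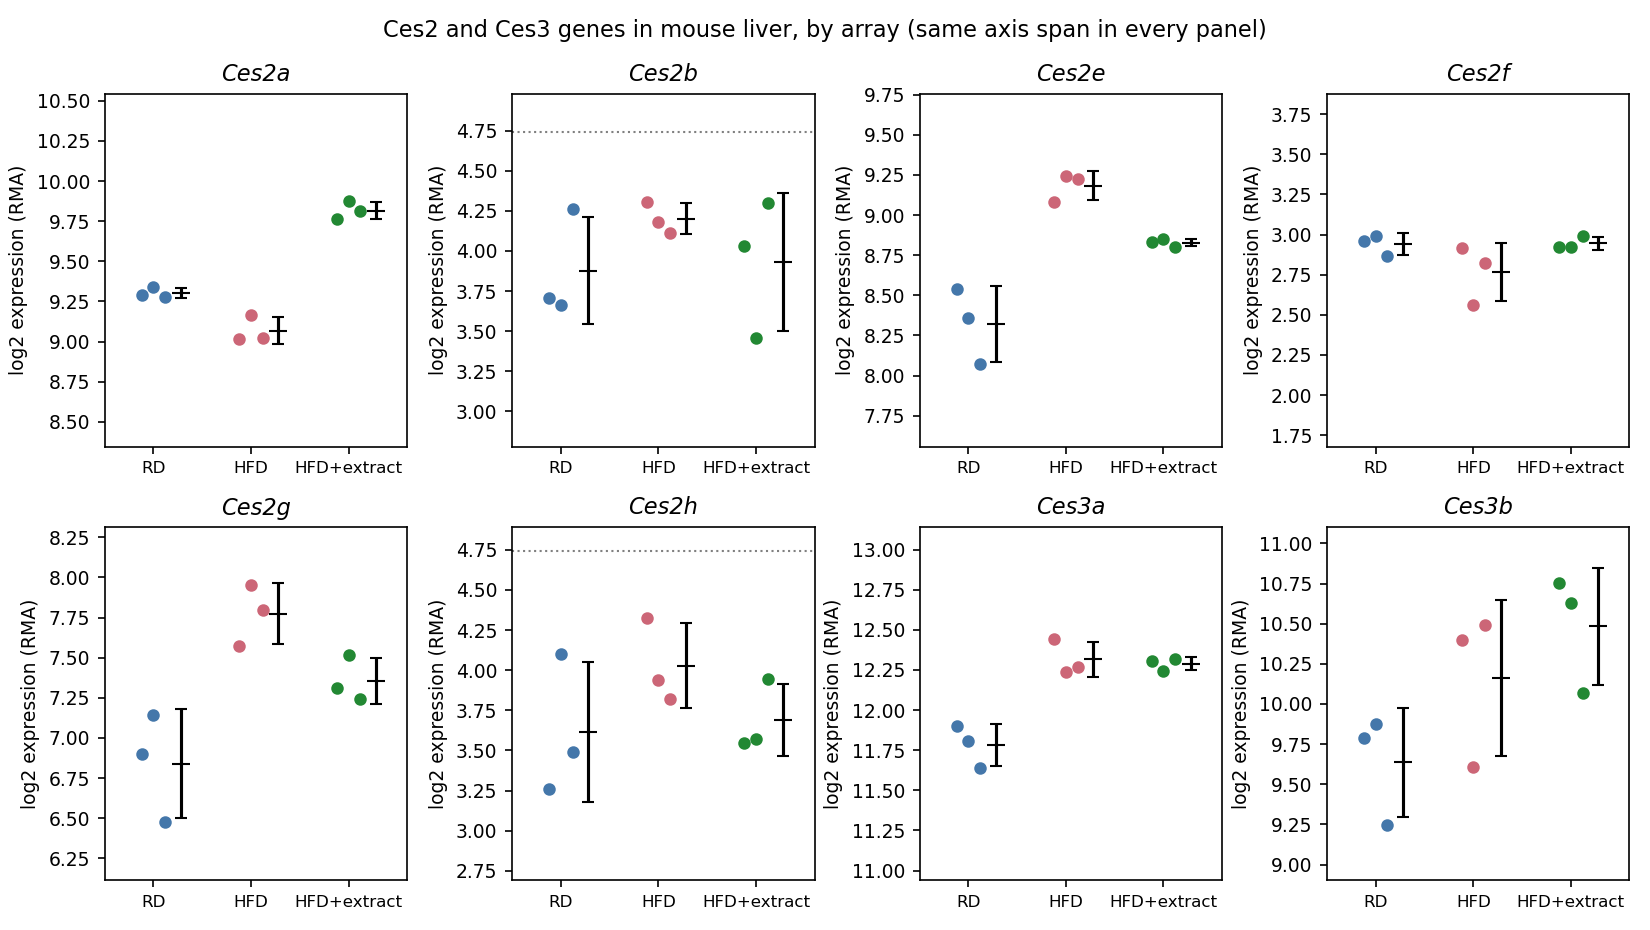
Log2 RMA expression of the 8 measured genes in each of the 9 arrays, as dots by group (RD regular diet, HFD high-fat diet, HFD+extract), with the group mean and SD (n = 3) beside the dots; every panel spans the same number of log2 units, and the dotted line is the median gene mean of 4.74 where it falls within the panel. Ces2a is lowest on the high-fat diet and highest with extract, whereas Ces2e and Ces2g are highest on the high-fat diet without extract.

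The first comparison set the livers on the high-fat diet against those on the regular diet, for the diet without extract. Ces2e, Ces2g and Ces3a passed upward, and none of the 8 genes passed downward. These are 3 of 8 genes, where 1.34% of all genes tested passed, 0.821% upward and 0.518% downward. Ces2e rose by 0.86 ± 0.11 (SE), or 1.81-fold (adjusted p = 0.0132 in limma, n = 3 and 3), from a mean of 8.32 ± 0.24 (SD) to 9.18 ± 0.09. Ces2g rose by 0.93 ± 0.17, or 1.91-fold (adjusted p = 0.0341), from 6.84 ± 0.34 to 7.77 ± 0.19. Ces3a rose by 0.53 ± 0.09, or 1.45-fold (adjusted p = 0.0259), from 11.78 ± 0.13 to 12.32 ± 0.11. These 3 differences were larger than the spread within groups, and every high-fat array lay above every regular-diet array.

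Ces2a stood at -0.23 ± 0.07 on the high-fat diet and did not pass (adjusted p = 0.170, 95% interval -0.39 to -0.08), although its 3 high-fat arrays lay below its 3 regular-diet arrays. Groups without overlap were found for 4 of the 8 genes and for 15.8% of all genes. Ces3b stood at 0.53 ± 0.27 (adjusted p = 0.451, 95% interval -0.08 to 1.14) with overlapping groups, a difference about the size of that of Ces3a but with a standard error of 0.27 against 0.09. The dim genes Ces2b, Ces2f and Ces2h had log2 differences of 0.32, -0.17 and 0.41, and none passed (adjusted p = 0.588, 0.489 and 0.471). The median of the 8 differences was 0.47 and that of all genes 0.00.

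The 3 rises kept their direction in all 17 alternatives but not their calls. When only the 6 arrays compared were fitted, none of the 3 passed (adjusted p = 0.0799 for Ces2e, 0.122 for Ces2g and 0.112 for Ces3a). Ces2e passed in 7 of 9 fits that each left out 1 array, and lay at 0.88 (adjusted p = 0.0538) without regular-diet replicate 2 and at 0.84 (adjusted p = 0.0546) without high-fat diet replicate 3. Ces2g passed in 1 of those 9 fits, the one without regular-diet replicate 2, with differences from 0.75 to 1.09 and adjusted p from 0.0487 to 0.121. Ces3a passed in 2 of them, those without regular-diet replicate 1 and without extract replicate 3, with differences from 0.46 to 0.59 and adjusted p from 0.0223 to 0.0875.

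The second comparison set the extract against vehicle, both on the high-fat diet. The high-fat arrays without extract enter it with the sign opposite to that in the first comparison. Spread in those arrays therefore moves the differences of the first and second comparisons in opposite directions. Ces2a rose by 0.75 ± 0.07, or 1.68-fold (adjusted p = 0.0376 in limma, n = 3 and 3, 95% interval 0.59 to 0.91), from 9.07 ± 0.08 (SD) to 9.82 ± 0.06. It was the only call among the 8 genes and among all 22180 (0.00451%), and since the family was taken up with this call known, it is given as a description. Ces2e stood at -0.35 ± 0.11 (adjusted p = 0.722) and Ces2g at -0.42 ± 0.17 (adjusted p = 0.802), and in both genes every extract array lay below every high-fat array without passing. Ces3a stood at -0.03 ± 0.09 (adjusted p = 0.976, 95% interval -0.23 to 0.17), and the sign turned to 0.04 without high-fat diet replicate 1. Ces3b stood at 0.32 ± 0.27 (adjusted p = 0.897) with overlapping groups.

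Ces2b, Ces2f and Ces2h, all dim, had log2 differences of -0.27, 0.18 and -0.34 with extract (adjusted p = 0.884, 0.852 and 0.864). In all, 3 of the 8 genes were higher and 5 lower, with a median of -0.15 against 0.00 over all genes. Groups without overlap were found for Ces2a, Ces2e, Ces2f and Ces2g, which are 4 of 8 genes, and for 9.69% of all genes.

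The size of the Ces2a difference moved little between alternatives, but the call was lost in many of them. Its difference ran from 0.72 to 0.80 when each of the 9 arrays was left out in turn, and it passed in 0 of these 9 fits, with adjusted p from 0.0529 without high-fat diet replicate 2 to 0.368 without high-fat diet replicate 3. The difference was the same 0.75 without regular-diet replicate 1 (adjusted p = 0.0754) or without regular-diet replicate 2 or 3 (adjusted p = 0.129 each), arrays that enter only the variance estimate. The remaining values were 0.72 (adjusted p = 0.0729) without high-fat diet replicate 1, and 0.78, 0.72 and 0.75 (adjusted p = 0.110, 0.302 and 0.0814) without extract replicates 1, 2 and 3. It passed in 6 of the other 8 alternatives. It did not pass with the replicate number as a block (adjusted p = 0.0942) or with only the 6 arrays compared (adjusted p = 0.256).

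The livers with extract were also set beside the regular diet, with the same arrays as in the other comparisons, so the values are only placed side by side. Ces2a rose by 0.51 ± 0.07, or 1.43-fold (adjusted p = 0.0224 in limma, n = 3 and 3), and was the 1 call among the 8 genes, where 0.442% of all genes passed, 0.261% upward and 0.180% downward. This call shares the extract arrays with the Ces2a call known when the family was taken up, so it too is given as a description. Ces3a stood at 0.51 ± 0.09 (adjusted p = 0.0559), Ces2e at 0.50 ± 0.11 (adjusted p = 0.119), Ces2g at 0.51 ± 0.17 (adjusted p = 0.261) and Ces3b at 0.85 ± 0.27 (adjusted p = 0.251). In these 5 bright genes the extract arrays all lay above the regular-diet arrays, which held for 14.6% of all genes in either direction. The dim genes Ces2b, Ces2f and Ces2h stood at 0.05, 0.01 and 0.07, and each of these signs turned in 3 or more alternatives: Ces2b in 3, Ces2f in 4 and Ces2h in 3. The median of the 8 differences was 0.51 and that of all genes 0.00.

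Ces2a passed in this comparison in 4 of the 9 fits that left out 1 array. It did not pass with only the 6 arrays compared (0.51, adjusted p = 0.0721), without regular-diet replicate 2 (0.53, adjusted p = 0.0833) or 3 (0.50, adjusted p = 0.0892), or without extract replicate 1 (0.54, adjusted p = 0.0845), 2 (0.49, adjusted p = 0.119) or 3 (0.52, adjusted p = 0.0592). Without regular-diet replicate 1, Ces3a (0.57, adjusted p = 0.0345) and Ces2e (0.61, adjusted p = 0.0366) passed as well. Ces3a also passed with variance trend and robust fitting (adjusted p = 0.0283), among brighter genes (adjusted p = 0.0225) and with array weights (adjusted p = 0.0450), so that it passed in 4 of the 17 alternatives. Over the 3 groups together, a moderated F test called Ces2a (adjusted p = 0.00971), Ces2e (adjusted p = 0.0264) and Ces3a (adjusted p = 0.0404), where 0.780% of all genes passed. Ces2g (adjusted p = 0.0787) and Ces3b (adjusted p = 0.352) did not. The F test's count of 3 genes was 1 in 8 of the 9 fits that left out 1 array, all but the one without regular-diet replicate 1, and 1 with the replicate block. The F test reuses the arrays of the Ces2a call known beforehand, so its count, which includes Ces2a, is given as a description.

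**Figure D2:**
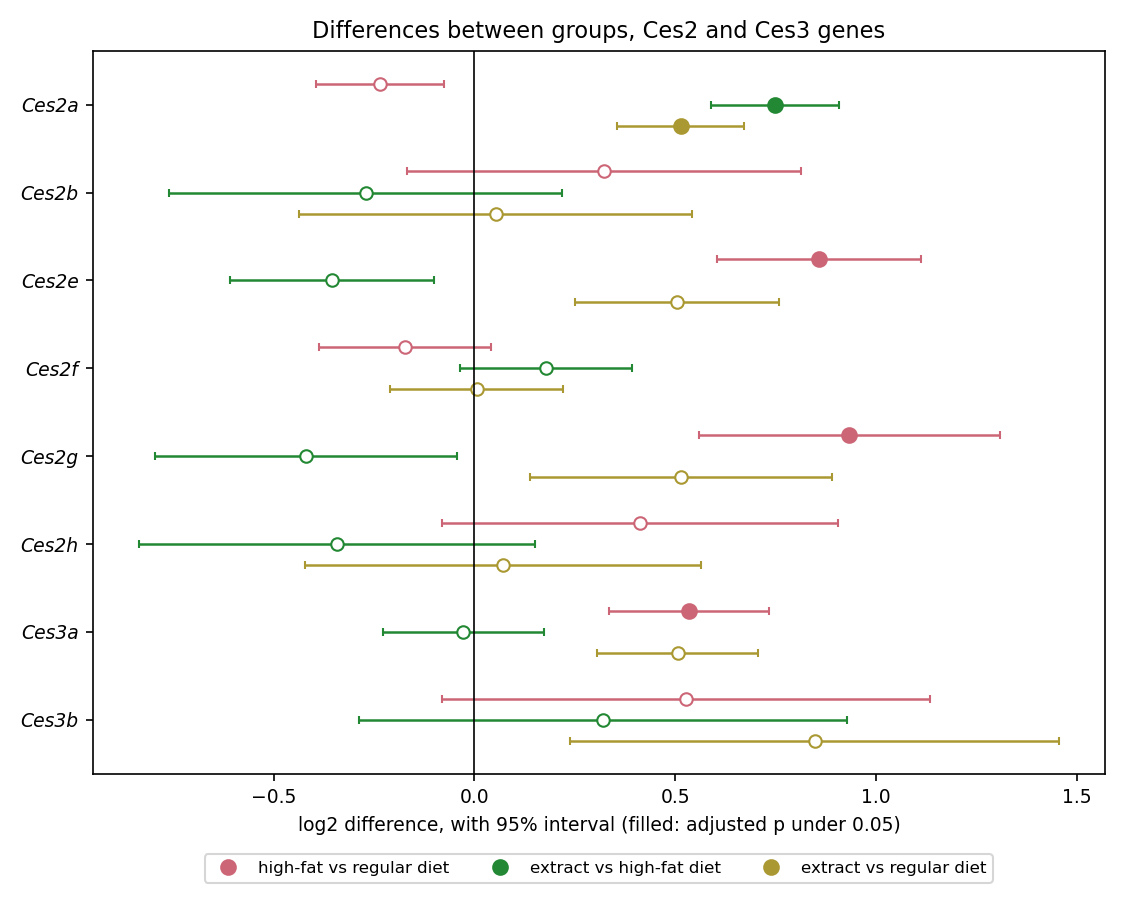
Log2 differences of the 8 measured genes in the 3 comparisons, with 95% intervals from limma (n = 3 per group); filled points passed at an adjusted p under 0.05 over all genes. Ces2a lies at -0.23 for the diet and at 0.75 for the extract, and Ces2e and Ces2g lie at 0.86 and 0.93 for the diet and at -0.35 and -0.42 for the extract. The high-fat arrays without extract enter both of these comparisons, with opposite sign.

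The offset of Ces2a from each of the other 4 bright genes was followed within arrays. The offset of Ces2a from Ces2e depends on the probe sets and has no meaning as a level, so only its shift between groups is read. This offset was 0.75, 0.98 and 1.21 on the regular diet, -0.06, -0.08 and -0.20 on the high-fat diet, and 0.93, 1.02 and 1.01 with extract. Its mean was 0.98 on the regular diet, -0.12 on the high-fat diet and 0.99 with extract. The high-fat arrays stood apart, and the other groups overlapped.

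Against Ces2g, the mean offset of Ces2a was 2.46 on the regular diet, 1.29 on the high-fat diet and 2.46 with extract. Against Ces3a it was -2.48, -3.25 and -2.47. In both, each high-fat array lay below all 6 other arrays. Against Ces3b the offset was -0.50, -0.54 and 0.03 on the regular diet, -1.38, -0.44 and -1.47 on the high-fat diet, and -0.99, -0.75 and -0.26 with extract, and the groups overlapped. The pairs were chosen after the values were seen, and no test was made. Relative to the high-fat diet, the extract group had a higher Ces2a, values of Ces2e and Ces2g that were lower without passing, and a Ces3a value that differed by -0.03. Relative to the regular diet, Ces2a, Ces2e, Ces2g and Ces3a stood at 0.51, 0.50, 0.51 and 0.51 with extract. Like offsets in these groups are therefore not like levels.

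The genes with the profile most like that of Ces2a were found by the root mean square gap between log2 profiles, each centred on its own mean over the 9 arrays, among 10583 genes whose range was at least 0.5 of that of Ces2a (0.86). They were Wsb1, an adaptor of a ubiquitin ligase, at a gap of 0.12, then Lrat, the retinol-esterifying enzyme of stellate cells, and Tmem47, at 0.15 each, Ramp1, a receptor-modifying protein, at 0.15, and the olfactory receptor gene Olfr1392 at 0.16. Of these 5, Wsb1 stood at 0.74 ± 0.11 with extract against the high-fat diet (adjusted p = 0.146), and none of the 5 passed there. Of the Ces2 and Ces3 genes the dim Ces2f came nearest, at rank 1080. Ces3a followed at rank 5944 with a gap of 0.38, and Ces2e and Ces2g stood at ranks 10022 and 10217 with gaps of 0.53 and 0.58.

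For Ces2g, whose range was 1.47, the most similar of 3104 genes was Ces2e, at a gap of 0.14. Gpr155, Agxt2, Rsph4a and Krtap19-4 followed at 0.16 to 0.19. For Ces2e, with a range of 1.17, the nearest of 5767 genes were Agxt2, a mitochondrial aminotransferase gene, at 0.09, Oasl1, an interferon-induced gene, at 0.11, Krtap19-4 at 0.12, Serpinb8 at 0.13 and Pm20d1, which makes N-acyl amino acids, at 0.13. Ces2g came next at rank 6. Near-identical paralogs may share signal on the array, so the assignment of signal to single genes of the run is uncertain, and this was not tested for the pair.

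Ces3b, with a range of 1.51, was most like the mitochondrial carrier gene Slc25a30 at a gap of 0.14, then Foxa1, a liver transcription factor gene, Lifr, Adh6-ps1 and Olfr1033 at 0.21 to 0.23. Ces3a, its neighbour, stood at rank 66 of 2903. For the dim Ces2h the nearest genes were Orm1, Psg17, Trmt61a, Fthl17f and Usp17lc, at 0.14 to 0.17.

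**Figure D3:**
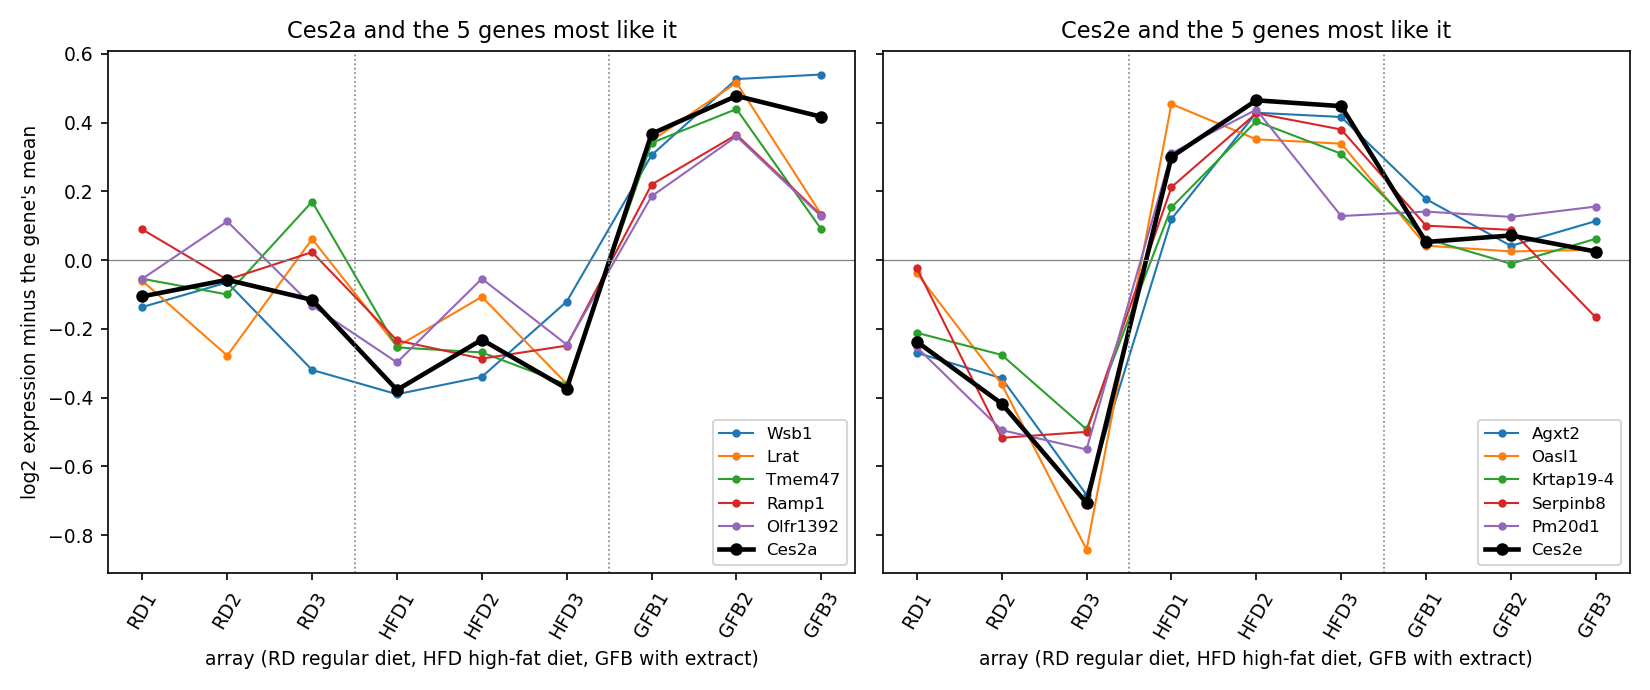
Log2 expression minus each gene's own mean over the 9 arrays (vertical axis) by array (horizontal axis), for Ces2a with its 5 most similar genes and for Ces2e with its 5 most similar genes. Ces2a itself is highest in the 3 extract arrays and Ces2e itself is lowest in the 3 regular-diet arrays, whereas some genes of each set, such as Tmem47 and Serpinb8, have overlapping groups.

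Genes next to the run on the chromosome were compared with it. Of 12 other measured genes, 5 on each side and 2 within it, none passed in any of the 3 comparisons in limma, whereas 2, 2 and 1 had an unadjusted p under 0.05, as did 13.3%, 5.98% and 12.1% of all genes. Their median differences were 0.02, 0.00 and 0.01 for the diet, the extract against the high-fat diet, and the extract against the regular diet. The smallest p among them belonged to Ces4a, a carboxylesterase gene of another group directly after Ces3b, for the diet (0.97 ± 0.32, adjusted p = 0.210) and to Cbfb for the extract against the high-fat diet (0.22 ± 0.09, adjusted p = 0.793). The pseudogene Ces2d-ps, within the run, stood at 0.14 ± 0.10 for the diet and -0.23 ± 0.10 for the extract on that diet (adjusted p = 0.610 and 0.805).

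**Figure D4:**
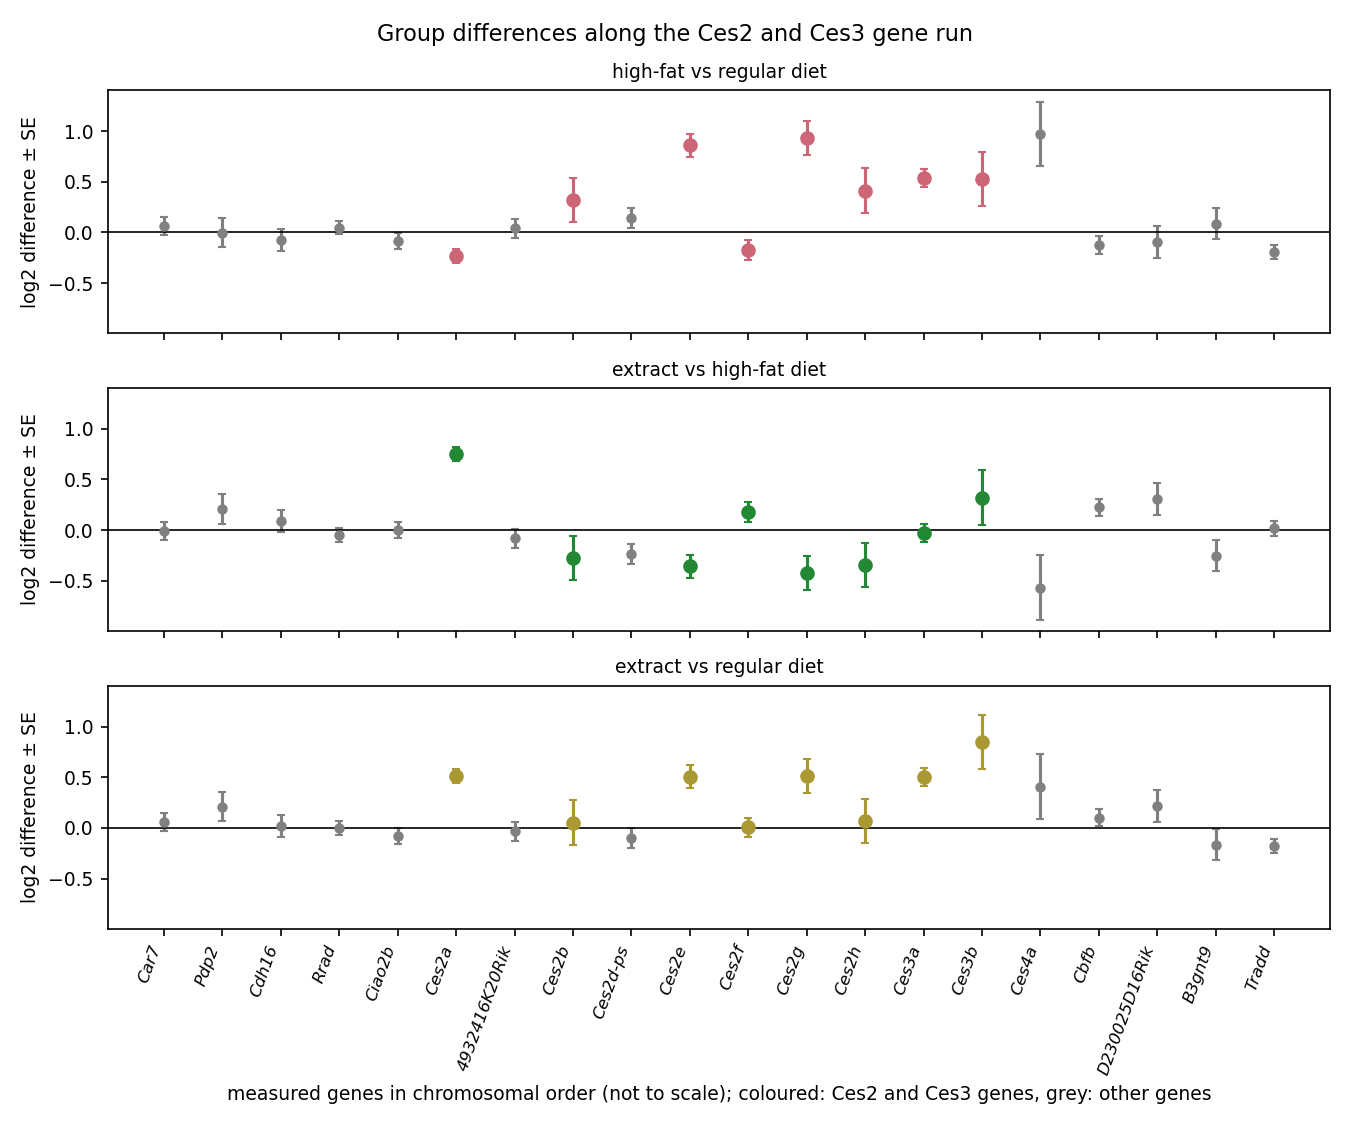
Log2 difference ± SE (n = 3 per group) for the 20 measured genes from 5 before Ces2a to 5 after Ces3b, in chromosomal order and not to scale, for the 3 comparisons; coloured points are Ces2 and Ces3 genes and grey points other genes. Within the run, Ces2a lies below 0 for the diet and at 0.75 for the extract on that diet, while Ces2e and Ces2g lie on the opposite sides. The diet difference of Ces2a and the extract differences of Ces2e and Ces2g on that diet did not pass. The high-fat arrays without extract enter both comparisons, with opposite sign.

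Of 11 other carboxylesterase genes, all measured, Ces1g alone passed on the high-fat diet, upward (2.03 ± 0.39, adjusted p = 0.0412), and the median was 0.14. With extract 0 of the 11 passed against either diet, with medians of 0.02 against the high-fat diet and 0.29 against the regular diet. Of 17 measured hydrolases of other esters, amides and epoxides, Ppt1, a lysosomal thioesterase gene, rose on the diet (0.55 ± 0.11, adjusted p = 0.0479) and Ephx2, the soluble epoxide hydrolase gene, fell (-0.47 ± 0.08, adjusted p = 0.0266). None of the 17 passed with extract against the high-fat diet or the regular diet.

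Of 19 measured lipase genes and lipase cofactors, Plin5, which encodes a lipid droplet protein, alone passed for the diet, downward (-0.98 ± 0.13, adjusted p = 0.0132). None passed with extract against the high-fat diet, where 13 were lower and the median was -0.17. Against the regular diet, Plin5 (-1.01 ± 0.13, adjusted p = 0.0168) and Mgll, the monoglyceride lipase gene (-0.73 ± 0.10, adjusted p = 0.0230), were lower with extract.

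Carboxylesterase genes are known to answer to nuclear receptors, among them the foreign-compound receptors PXR (Nr1i2) and CAR (Nr1i3) and the hepatocyte factor HNF4 alpha (Hnf4a). Of 13 measured genes for such factors, 0 passed in the 3 comparisons in limma. The smallest p belonged to Ppargc1a, a coactivator gene (-1.04 ± 0.31, adjusted p = 0.170), and Nr1h4 (0.34 ± 0.10, adjusted p = 0.172) for the diet. For the extract on that diet it belonged to Nfe2l2, the NRF2 gene (-0.29 ± 0.10, adjusted p = 0.726), and Nr1h4 (-0.24 ± 0.10, adjusted p = 0.810). At an unadjusted p under 0.05 the counts were 6 for the diet, 2 for the extract on it and 4 for the extract against the regular diet, where the shares of all genes were 13.3%, 5.98% and 12.1%. Of 11 measured CAR and PXR targets, Abcc3, an export pump gene, rose on the diet (0.75 ± 0.12, adjusted p = 0.0213) and none passed with extract. Cyp3a11, the best known PXR target in mouse liver, stood at 0.75 ± 0.22 with extract against the high-fat diet (adjusted p = 0.693). Cyp2b10, a CAR target, stood at 1.02 ± 0.40 (adjusted p = 0.802) and lay above the brightness mark in 3 of the 9 arrays. Of the 11 targets 5 were higher and 6 lower in that comparison, with a median of -0.008.

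Markers of hepatocytes and of other cell types were set beside the Ces2a difference with extract. Of 7 measured intestinal markers, a tissue rich in Ces2 enzymes, 5 lay below the brightness mark in every array, 0 passed, and all 7 were higher with extract than on the high-fat diet, with a median difference of 0.07. Their summed log2 level ran from 28.09 to 28.71 on the high-fat diet and from 28.87 to 29.40 with extract. All 5 stellate cell markers were higher with extract than on the high-fat diet, with a median of 0.33 and sums of 33.00 to 33.68 and 34.57 to 35.10, and 0 passed. Lrat, the marker among the nearest profiles above, stood at 0.57 ± 0.12 (adjusted p = 0.427). The sums of the 6 hepatocyte markers (75.10 to 75.76 and 75.93 to 76.29) and of the 3 pancreas markers (11.23 to 11.77 and 11.83 to 12.48) were also higher with extract, without overlap. Of the 6 hepatocyte markers 5 were higher, with a median of 0.08, and the largest differences were those of Cps1 (0.34) and Tat (0.22). Alb, Apoa1 and Cyp2e1 stood at 0.01, 0.11 and 0.05, and Ttr was lower (-0.10). Of the 3 pancreas markers 2 lay below the brightness mark in every array, and the median difference was 0.09. The largest was that of the dim Prss2 (0.40, from a mean of 2.40 to 2.79). The sums of the macrophage, endothelial, bile duct, lymphocyte and white adipose markers overlapped between the high-fat diet and the extract group. Of the 5 endothelial markers, 3 were higher with extract (Clec4g 0.56, Kdr 0.42 and Stab2 0.24). The other 2 were lower (Pecam1 -0.08 and Lyve1 -0.18), and 0 passed. Between the regular and the high-fat diet, the hepatocyte sum was lower on the high-fat diet without overlap (76.07 to 76.51 against 75.10 to 75.76). The intestinal, stellate and pancreas sums overlapped. Of the 6 hepatocyte markers 4 were higher on the high-fat diet, with a median of 0.05, and the lower ones were Cps1 (-0.66) and Tat (-0.47). Of all the markers, Cps1, a urea cycle enzyme gene of hepatocytes, was the single one that passed in any of the 3 comparisons, and it fell on the diet (-0.66 ± 0.10, adjusted p = 0.0224). The part of these markers in the carboxylesterase differences was not tested.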

How the data were processed

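The deposited values are on the log2 scale, 1 per probe set and array. The authors obtained them with RMA in oligo, according to the submitters' processing notes, where no version is named. This method corrects background, brings all arrays to 1 distribution and combines the probes of a set, which hides any shift common to most genes. Of 41345 probe sets, 23521 had 1 symbol in the array annotation, 1814 several and 16010 none. Where a gene had more than 1 such probe set (1082 genes) the brightest was used, giving 22180 genes. Each of the 8 measured genes had 1 probe set. Symbols equalled RefSeq GRCm38.p6 symbols by gene identifier for 23328 probe sets, and 193 had no match. No source used here gives a genome build for the probe sets.

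Group means were fitted to 9 arrays in limma 3.58.1 (R 4.3.3), with 6 residual and 3.28 prior degrees of freedom. An exact test of 3 against 3 arrays cannot go below p = 0.1, so none was used. The procedure was tested on simulated data for the extract against the high-fat diet, with 200 changed genes. It recovered 54.6% of log2 changes of 0.5 and 96.7% of changes of 1, and 5.22% of calls were false. The real comparison called 1 gene, and recovery with fewer than 200 changed genes was not simulated, so these shares need not hold for it. The simulated noise was drawn from the moderated variances of the fit itself.

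All 8 genes were named throughout, with the 5 most similar genes for Ces2a and for members with a range above 1. From each list and from the neighbours, genes that passed, or otherwise the 2 with the smallest p, could be named. Cyp2b9 was named besides, for the size of its difference. The members and lists were chosen with earlier results of these data known. Promoter sequences are from RefSeq, GRCm38.p6.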

Additional observations from a re-analysis of the deposited data

How the results depend on the processing

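The 17 alternatives were variance trend with robust fitting, a second quantile normalization, probe set means, brighter genes only, the replicate number as a block, array weights, arrays shifted to 1 median, the 6 arrays compared, and each array left out. The count of members called for the diet was 3 in the main analysis and 0 with 6 arrays, and it ran from 0 to 2 without 1 array. For the extract on the high-fat diet it was 1, and 0 with the replicate block, with 6 arrays and without any 1 array. For the extract against the regular diet it was 1, then 2 with variance trend, brighter genes or array weights, where Ces3a is the second, 0 with 6 arrays, and 0 to 3 without 1 array. By the F test it was 3, then 4 among brighter genes, 2 with a second quantile normalization, 1 with the replicate block and 1 to 3 without 1 array, with 1 in 8 of those 9 fits. Fewer arrays leave fewer residual degrees of freedom, and the cause of the other shifts was not tested.

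The replicate numbers are not known to pair the samples: deviations of same-numbered arrays correlated at -0.05 to 0.17 over 9 pairs, 1 of them above 0.1. With the block the Ces2a difference with extract stayed at 0.75 (adjusted p = 0.0942).

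For the extract against the regular diet, the sign turned for Ces2f with arrays shifted to 1 median and with array weights (-0.0047 each) and for Ces2h with array weights (-0.024). Without 1 array, Ces2b ran from -0.13 to 0.29, Ces2f from -0.032 to 0.032 and Ces2h from -0.11 to 0.31 in that comparison, and Ces3a from -0.068 to 0.035 for the extract on the high-fat diet. The genes called over the whole array numbered 297, 1 and 98 for the 3 comparisons, 597, 4 and 232 among brighter genes, and 15, 0 and 34 with 6 arrays. Without 1 array they ran from 58 to 452, 0 to 3 and 2 to 267. With array weights 3 genes were called for the extract on the high-fat diet. The number of arrays limits the precision, and Ces2b, Ces2f and Ces2h have dim signals whose distance from background was not measured here.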
